A study of Mus musculus with 3 samples.

Results

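Langerhans cells were picked out of 3 single-cell libraries of mouse dorsal skin by the transcripts they carried. A cell was taken as a member if it held at least 1 UMI (unique molecular identifier, a count of captured transcripts) of Cd207, at least 1 UMI of each of at least 2 of the 5 genes Epcam, Ltc4s, H2-M2, Mfge8 and Cd24a, at least 3 UMIs of Cd74 and H2-Aa together, and none of Xcr1, Ccr7, Cd3e and Cd3d. Members were thus chosen by the UMIs of these genes, and their levels describe the choice and were not tested. The rule found 275 cells among 16604 kept cells, with 85 in wild-type skin without irradiation (WT_Ctrl), 137 in wild-type skin after UVB (WT_UV) and 53 in Cox-2 overexpressing skin after UVB (RP_UV). Where 3 values stand in a row, they are in this order.

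Langerhans cells are the resident dendritic cells of the epidermis. They sit between keratinocytes, to which they hold through E-cadherin and EpCAM, and they take up antigen with langerin, the lectin encoded by Cd207. On activation they are known to leave through the lymph for the draining node, where they present peptides on MHC class II to T cells. Their upkeep depends on TGF-β signalling, the transcription factors Runx3 and PU.1, and the receptor encoded by Csf1r, and ultraviolet light is known to lower their number in the epidermis. Prostaglandin E2, the main product of Cox-2 in skin, is known to act on dendritic cells through receptors that raise cAMP.

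All mice were 8-week-old C57Bl/6 males with hair follicles in telogen. WT_UV and RP_UV skin had received 3 UVB exposures and was taken on day 5, whereas WT_Ctrl skin was not exposed. RP mice carry Rosa26-rtTA and Tre-Ptgs2, which place a rat Ptgs2 under doxycycline in all tissues, so the overexpression was not restricted to Langerhans cells or to the epidermis. Whether the wild-type mice of these libraries received doxycycline is not given in the sources used here. Cells were dissociated with collagenase and enriched for CD45, the surface protein of white blood cells, on magnetic beads, and 1 library was made per group.

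Each group had 1 library, so no difference below had a replicate check, and intervals at 95% cover counting error only. The members held 508081, 2689265 and 392702 UMIs in sum, with a median per cell of 5133, 18061 and 5848. WT_UV was the deeper library throughout, with a median of 10557 UMIs per kept cell against 4246 and 3774. By the labels, WT_UV had a flow cell of its own while the other libraries were run together, so a comparison that involves WT_UV is one of runs as well as of groups, which cannot be told apart. RP_UV and WT_Ctrl shared the run but differed in both UVB and genotype. Each pair of libraries shared 8 to 11 deposited barcodes and 7 to 9 kept ones, and no shared barcode belonged to a member. In a sum over members alone, fewer contributing cells and less RNA per cell cannot be told apart. Shares of members with a UMI or levels per member are therefore given for some genes.

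To check the label, Runx3 and Ly75, which the rule did not use, were read beside all other kept cells of the same library. Runx3, the transcription factor needed for Langerhans cells to form, stood at 491, 595 and 372 CPM (UMIs of a gene scaled to a total of 1e6 UMIs) in the low-mixture members defined below and at 32.9, 88.4 and 20.3 CPM in other cells. Of the identity genes named below, Runx3 and Ly75 stood at 10 times or more their other-cell level in WT_Ctrl. Cdh1, Csf1r, Spi1 and Id2 did not reach 10 times, so the check rests on the more enriched markers. A share of the members carried transcripts of a second cell type. Keratinocyte transcripts made up at least 1% of UMIs in 7, 11 and 7 members. At least 0.2% of UMIs came from 8 macrophage genes other than the C1q genes (Mrc1, Cd163, Lyve1, Ccl8, F13a1, Folr2, Pf4 and Cd209f) in 2, 14 and 13 members. Cd209a and Mgl2, lectins of type 2 dendritic cells, made up at least 0.1% in 6, 36 and 11 members.

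The cells below all 3 limits are called low-mixture members here, a group defined after the data had been seen. They numbered 71, 78 and 24, or 83.5% (73.9 to 90.7), 56.9% (48.2 to 65.4) and 45.3% (31.6 to 59.6) of members, so the mixed cells were spread unevenly over the libraries. H2-M2, a nonclassical MHC class I gene of Langerhans cells, had no UMI in 0, 1 and 1 of the low-mixture members, but in 1, 31 and 12 of the others. The others were also deeper, with a median of 11240.5, 25530.0 and 10097 UMIs against 4852, 13363 and 4208. H2-M2 belongs to the rule, so this describes the choice of cells. Of the markers outside the rule, Runx3 stood at 388, 354 and 229 CPM over all members and Ly75, the uptake receptor DEC-205, at 72.8, 72.1 and 61.1 CPM, compared with 101, 134 and 124 CPM of Ly75 in low-mixture members and 4.63, 7.26 and 1.39 CPM in other cells. Among the members above the limits, dermal dendritic cells that express Cd207 and cells captured together cannot be told apart. Levels below are those of the low-mixture members unless all members are named.

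The cells at the edges of the rule are described by H2-M2, which the rule used, and Mgl2, which it did not. Members with exactly 1 UMI of Cd207 numbered 6, 28 and 7, and their H2-M2 level was 729.6, 136 and 342 CPM, compared with 2534, 1877 and 743 CPM in members with more Cd207. Cells that met every other condition but had no Cd207 numbered 62, 269 and 68. Their H2-M2 level was 103, 13.3 and 35.2 CPM and their Mgl2 level was 1018, 1095 and 903 CPM. Just inside the marker limit, the 3, 25 and 9 members with exactly 2 supporting genes held H2-M2 at 119.9, 11.2 and 0 CPM. Just outside it, the 7, 34 and 17 cells with only 1 supporting gene held H2-M2 at 0, 35.3 and 52.2 CPM and Mgl2 at 964, 1560.3 and 2374 CPM. Low H2-M2 near the marker limit follows from the limit itself, as H2-M2 is among its 5 genes. The filters on cells also removed 63, 53 and 19 cells that otherwise passed the rule, 60, 47 and 19 of them for too many genes, and 3, 5 and 0 of those removed were low-mixture cells.

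To determine how abundant Langerhans cells were, members were counted over all kept cells. They made up 1.6% (1.28 to 1.98), 2.62% (2.21 to 3.09) and 0.873% (0.655 to 1.14) of kept cells. The share in RP_UV was 0.333 times that in WT_UV (0.243 to 0.456) and 0.545 times that in WT_Ctrl (0.388 to 0.767). The higher share in WT_UV than in WT_Ctrl, a ratio of 1.64 (1.25 to 2.14), depended on depth and mixture. With every cell thinned to 2000 UMIs before the rule was applied, the ratio was 1.08 (0.802 to 1.46), and for low-mixture members it was 1.12 (0.811 to 1.54). The low-mixture share was 1.34% (1.05 to 1.68), 1.49% (1.18 to 1.86) and 0.395% (0.253 to 0.588), and RP_UV stood at 0.265 times WT_UV (0.168 to 0.418) and 0.296 times WT_Ctrl (0.186 to 0.469). The RP_UV share was below both wild-type shares in all 3 of these counts.

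The denominator differed between the libraries as well. Over the 2742, 4364 and 2739 kept cells with a UMI of Ptprc, the gene of CD45, members made up 3.1%, 3.14% and 1.94%, with a ratio of RP_UV to WT_UV of 0.616 (0.451 to 0.843) and of WT_UV to WT_Ctrl of 1.01 (0.776 to 1.32). Over the 3123, 3923 and 1488 kept cells with the 3 UMIs of Cd74 and H2-Aa that the rule asks for, the shares were 2.72%, 3.49% and 3.56%, and the ratio of RP_UV to WT_UV was 1.02 (0.747 to 1.39). Members were therefore scarcer in RP_UV among all cells and among Ptprc-positive cells, while the share of all members among cells with MHC class II transcripts was not lower there. These 2 counts used all members, of which 83.5%, 56.9% and 45.3% were low-mixture. Low-mixture members were not counted over these denominators. Detection of Ptprc or of Cd74 and H2-Aa also depends on depth, and WT_UV was the deeper library. Other dendritic cells were fewer in RP_UV too, at 561, 379 and 106 for type 2 and 86, 77 and 11 for type 1.

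**Figure D1:**
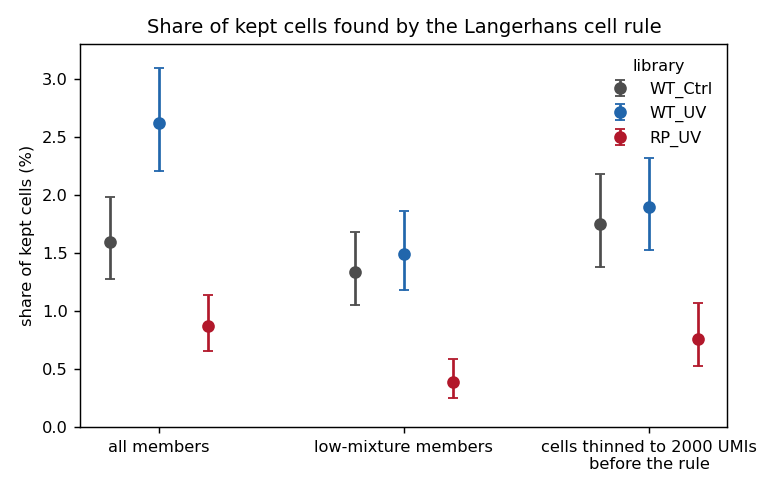
Share of kept cells (%, y axis) that were Langerhans cells in each library, for all members, low-mixture members and cells thinned to 2000 UMIs before the rule was applied. Points are single libraries and bars are exact binomial 95% intervals. RP_UV lies lowest in each count, at 0.873%, 0.395% and 0.764%, and the ratio of WT_UV to WT_Ctrl is 1.64 for all members but 1.12 and 1.08 in the other counts.

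The rule's own genes describe what kind of cells were collected. Cd207 stood at 2527, 1956 and 2178 CPM in low-mixture members and Epcam, the adhesion protein, at 1693, 1691 and 1452 CPM, so both differed by less than 2-fold between any libraries. Ltc4s, the synthase of the leukotriene C4, stood at 1196 (1085 to 1315), 546 (504 to 589.8) and 469 CPM (351 to 614). H2-M2 (ENSMUSG00000016283) stood at 2985 (2808 to 3169.6), 2666 (2573 to 2761) and 1346 CPM (1140.2 to 1577), and 1 cell held 24.3% of its UMIs in RP_UV. Cd24a, a glycoprotein of dendritic cells, stood at 171, 242 and 363 CPM. Since a cell needed UMIs of these genes to be counted, none of these values supports the label.

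Mfge8 (ENSMUSG00000030605) had the widest range of the marker genes that the rule asks for. It encodes lactadherin, a secreted protein that bridges dying cells to phagocytes. Its level was 986 (885 to 1094), 3739 (3629 to 3851) and 6551 CPM (6087 to 7040.4), against 24.5, 52.1 and 47.5 CPM in all other kept cells. Per member and 10000 UMIs the median was 7.07, 27 and 71.7, with a lowest member at 0, 0 and 9.24 and a highest at 36.6, 131 and 155, so the libraries overlapped while their middle values stood apart. Mature dendritic cells, of which there were 13, 30 and 3, held Mfge8 at 230.4, 376 and 3719 CPM, with the last from 34 UMIs. Type 1 dendritic cells held it at 9.28, 24.2 and 69.1 CPM, and macrophages and type 2 dendritic cells had at most 25.5 CPM. The mature dendritic cells of RP_UV also held Cd207 at 438 CPM and H2-M2 at 2188 CPM. Langerhans cells left out of the rule for their Ccr7 therefore cannot be told apart from them. Type 1 dendritic cells had the same order of libraries, at levels far below those of the members. As a gene of the rule Mfge8 is given as a description.

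**Figure D2:**
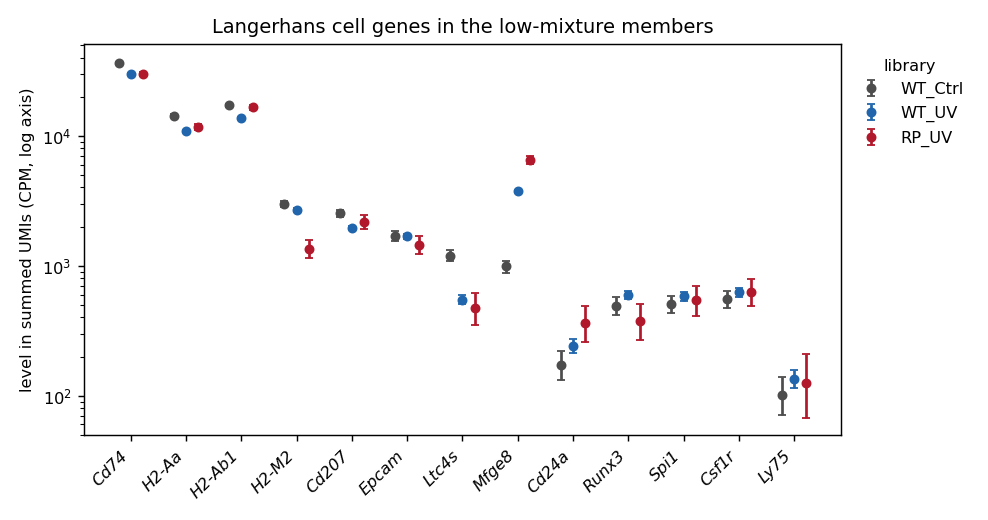
Level (CPM, log axis) of the rule's genes and of MHC class II and identity genes in low-mixture Langerhans cells of WT_Ctrl, WT_UV and RP_UV. Points are sums over the cells of a library and bars are 95% Poisson intervals. Mfge8 stands highest in RP_UV at 6551 CPM and Ltc4s and H2-M2 stand lower there, while Cd207, Epcam and the MHC class II genes differ by less than 2-fold.

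Genes of Langerhans cell identity outside the rule were close to level across the libraries. Cdh1, which encodes E-cadherin, stood at 236, 284 and 221 CPM, Csf1r at 550.3, 622 and 629 CPM, and Spi1, the gene of PU.1, at 503, 582 and 540.0 CPM. Runx3 was at 491, 595 and 372 CPM and Ly75 at 101, 134 and 124 CPM. Of the 11 genes of this list that were tested (a mean of at least 100 CPM over the libraries), none differed by 2-fold on log2(CPM + 10) between WT_UV and WT_Ctrl, the threshold used for every call below. Over all genes tested in these cells, 4.74% were higher and 2.37% lower by that threshold. Between RP_UV and WT_UV 1 of 11 passed it, where 4.74% of all tested genes were higher and 5.16% lower. This was Id2, a transcriptional regulator of dendritic cell development, at 550.3, 517 and 195 CPM, lower by 2.65-fold in RP_UV (1.74 to 4.27). The median log2 difference of the list was 0.17, -0.03 and -0.16 for WT_UV over WT_Ctrl, RP_UV over WT_UV and RP_UV over WT_Ctrl.

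The machinery of antigen presentation was likewise near level. H2-Ab1, a chain of MHC class II, stood at 17144, 13621 and 16510.0 CPM, H2-Eb1 at 15159, 12034 and 14005 CPM, and Cd74, the invariant chain, at 36470.1, 29988 and 29966 CPM. Of 7 tested class II genes outside the rule none passed the threshold in either comparison with WT_UV. Of all tested genes, 4.74% were higher and 2.37% lower in WT_UV over WT_Ctrl, and 4.74% and 5.16% in RP_UV over WT_UV. Ciita, the transcriptional activator of class II genes, was lower in RP_UV than in WT_Ctrl, a comparison in which 7.46% of all tested genes were lower, at 286, 216 and 106 CPM, by 2.7-fold (1.48 to 5.39), and in other kept cells it stood at 89.1, 106 and 13.7 CPM. Of 8 tested class I genes, 1 was higher and 1 lower in RP_UV than in WT_UV, against 4.74% and 5.16% of all tested genes. Calr, a chaperone of class I assembly, was higher at 385, 362 and 744 CPM. Psmb9, a subunit of the immunoproteasome, was lower at 177, 196 and 79.7 CPM. Among the maturation genes 3 were tested. The rule left out cells with Ccr7, a gene of mature dendritic cells, and that step removed 1, 13 and 4 cells. The levels of maturation genes therefore do not cover such cells. The costimulatory gene Cd86 stood at 368, 376 and 602 CPM and passed in no comparison. Mmp9, a collagenase used by migrating dendritic cells, stood at 365, 110.2 and 204 CPM. Of the 3 genes only Mmp9 was lower in WT_UV than in WT_Ctrl, where 2.37% of all tested genes were.

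To determine what differed in Langerhans cells after UVB in wild-type mice, WT_UV was compared with WT_Ctrl over all genes. Among 1446 genes tested in all members, the rule's genes left out, 6.98% (101) were at least 2-fold higher in WT_UV and 2.7% (39) lower. In low-mixture members 1434 genes were tested, and 4.74% (68) were higher and 2.37% (34) lower. The median of all tested genes moved by 0.02 and -0.02, where scaling to the same total holds it near 0. Some of the genes highest in WT_UV were higher in the sum of all other kept cells too. Ndufb1-ps stood at 216, 758 and 389.5 CPM in low-mixture members and at 187, 434 and 215 CPM in all other kept cells, and Atp5mpl at 101, 304 and 124 CPM against 124, 291 and 175 CPM. Run and group cannot be told apart in these values.

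Among the genes higher in WT_UV was Cxcl16 (ENSMUSG00000018920), which encodes a membrane-bound chemokine and scavenger receptor. It stood at 56.2 (34.3 to 86.7), 425 (388 to 464) and 451 CPM (336 to 594), 7.56-fold higher in WT_UV than in WT_Ctrl (4.84 to 12.5) and at 1.06 times that level in RP_UV (0.781 to 1.42). Other kept cells held it at 52.7, 105 and 55.2 CPM, and after thinning to 2000 UMIs it was seen in 12.9%, 46.2% and 43.5% of low-mixture members against 0%, 1.55% and 0% of T cells, a class that should lack it. The thinned T cells of RP_UV numbered 12. Keratinocytes showed Cxcl16 in 8.74%, 12.5% and 5.64% of cells after thinning, and type 2 dendritic cells in 2.79%, 10% and 9.71%. Cxcl16 thus separated both irradiated libraries from the control one in the members, across runs, and type 2 dendritic cells also had their lowest share in the control library.

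Zmynd15 ranked highest in WT_UV over WT_Ctrl on log2(CPM + 10), at 14, 289.6 and 150.5 CPM (20.6-fold, 8.75 to 63.9), and it was near 0 in other cells at 7.39, 11.6 and 2.09 CPM. Nlrp3, the sensor of the inflammasome that matures IL-1β, stood at 14, 74.3 and 328 CPM, and 1 cell held 37.8% of its UMIs in RP_UV. Bcl2a1b and Bcl2a1d, antiapoptotic genes, were at 135, 477 and 974 CPM and at 2.81, 109 and 248 CPM. These paralogs are nearly identical, so the division of reads between them is uncertain. Ctsz, a lysosomal protease, at 160, 534 and 513 CPM, Scimp, an adaptor of antigen receptor signalling, at 78.6, 228 and 283 CPM, and the tubulin gene Tubb2a at 64.6, 190.5 and 124 CPM completed the 10 highest of the low-mixture members together with Ndufb1-ps and Atp5mpl. In all members, Mmp12, Furin, Cst6, Defb6, Plaur and Cstb also ranked among the 10 highest. Of these, 1 member held 87.7% of the Cst6 UMIs in WT_UV, and in low-mixture members 1 cell held 92.1% of the Mmp12 UMIs.

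The genes lower in WT_UV were led by Hpgd, described with the prostaglandin genes below, and Col16a1, a collagen gene, at 452, 93.1 and 53.1 CPM (lower by 4.86-fold, 3.78 to 6.25). The transcription factor Zbtb20 stood at 258, 53 and 26.6 CPM, lower by 4.88-fold (3.5 to 6.84), Grasp at 747, 251 and 248 CPM, and Ccrl2, a receptor that binds chemerin, at 236, 77.7 and 88.5 CPM. All of these were low in both irradiated libraries. Tspan8 at 379, 155 and 168 CPM and Tsc22d3, a glucocorticoid-induced gene, at 587, 225 and 328 CPM were among the 10 lowest of all members, and both irradiated libraries lay below the control one. Rgcc, a cell cycle regulator, was the exception, at 382, 132 and 602 CPM.

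Tnf, which encodes the cytokine TNF, was also lower in WT_UV, at 486, 164 and 274 CPM (by 2.96-fold, 2.4 to 3.66), and genes known to respond quickly to tissue handling were lower in the same library. Of 14 tested immediate early and dissociation stress genes, 2 were lower in WT_UV (2.37% of all tested genes were), none was higher, and the list's median log2 difference was -0.65 against -0.02 over all genes. Btg2, a growth arrest gene, stood at 3136, 1139 and 1735 CPM, Atf3 at 1564, 767 and 682 CPM, and Fos at 3914, 2026 and 2930.2 CPM. The part of tissue handling in the lower Tnf was not tested. Btg2 stood at 1183, 792 and 2346 CPM in T cells and at 547, 181 and 200.4 CPM in keratinocytes, both lowest in WT_UV as in the members, and at 201, 219 and 251 CPM in macrophages.

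To determine what Cox-2 overexpression added to irradiation, RP_UV was compared with WT_UV. Of 1446 genes tested in all members, 4.01% (58) were higher in RP_UV and 3.11% (45) lower, and in low-mixture members 4.74% (68) of 1434 were higher and 5.16% (74) lower. Against WT_Ctrl, which shared the run, 10.2% (148) were higher and 5.33% (77) lower in all members, and 8.93% (128) and 7.46% (107) in low-mixture members. The 2 comparisons share the RP_UV library. The 24 low-mixture members of RP_UV held 112962 UMIs, so their levels are the least precise of the 3 libraries.

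Epidermal transcripts took up much of the difference in all members. Of 15 tested keratinocyte genes, 12 were higher and 1 lower in RP_UV than in WT_UV, where 4.01% and 3.11% of all tested genes were, and the list's summed level was 6672, 6833 and 15424 CPM in members, against 15762, 6579.9 and 16814 CPM in all other kept cells. Krt6b at 0, 0.744 and 316 CPM, Krt16 at 5.9, 21.2 and 677 CPM, and Sprr1a at 23.6, 39.4 and 300.5 CPM, genes of the activated epidermis, ranked among the 10 highest, and 1 member held 57.3% of the Krt6b and 84.7% of the Sprr1a UMIs in RP_UV. Spink5, Urah and Hspb1 completed this epidermal group. At the lower end of all members Defb6, Ccl27a, Cst6 and Krt79, genes of keratinocytes and hair follicles, were joined by Ear2, which stood at 84.6, 279.6 and 66.2 CPM. In low-mixture members, which the rule for them holds below 1%, the keratinocyte sum was 289, 401 and 779 CPM. The levels of these genes therefore describe the mixture in the members and are not read further.

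In low-mixture members S100a9, Acta2 and Ifitm1 ranked highest in RP_UV over WT_UV, followed by Il1b and Cxcl2. Il1b (ENSMUSG00000027398), which encodes IL-1β, stood at 89.8 (61.5 to 127), 373 (339 to 410.0) and 4267 CPM (3894 to 4665), and Cxcl2 (ENSMUSG00000058427), a chemokine that attracts neutrophils, at 75.8, 450.1 and 3612 CPM. Il1b was 11.4-fold (10 to 13) and Cxcl2 8.02-fold higher (7.03 to 9.15) in RP_UV than in WT_UV. Both were carried by some of the cells: Il1b had a UMI in 6, 30 and 15 low-mixture members and Cxcl2 in 5, 25 and 18, and the highest single cell held 25.7% and 38% of their UMIs in RP_UV. Per 10000 UMIs the median member had 0, 0 and 5.05 UMIs of Il1b and the highest had 27.3, 55.5 and 265. Of 6 tested cytokine and chemokine genes, 3 (Il1b, Cxcl2 and Cxcl16) were higher and 1 (Tnf) lower in WT_UV than in WT_Ctrl, where 4.74% and 2.37% of all tested genes were. In RP_UV over WT_UV 2 (Il1b and Cxcl2) were higher and none lower, against 4.74% and 5.16%.

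These transcripts were also abundant outside Langerhans cells. All other kept cells held Il1b at 354, 722 and 1492 CPM and Cxcl2 at 52.3, 488 and 1835 CPM. After thinning to 2000 UMIs, Il1b was seen in 5.71%, 11.5% and 52.2% of low-mixture members (8.45%, 38.5% and 62.5% before thinning), against 0.913%, 0.738% and 1.92% of keratinocytes and 11.6%, 11.1% and 50% of T cells. The thinned T cells of RP_UV numbered 12, and the T cells had a median of 2608, 6056 and 2015 UMIs per cell. Cxcl2 was seen in 5.71%, 14.1% and 78.3% of low-mixture members and in 3.12%, 4.91% and 58.3% of T cells. The share of low-mixture members with Il1b in WT_Ctrl and WT_UV was therefore at the level of T cells, and that in RP_UV was above it only slightly, so the shares do not separate expression of Il1b from free RNA. Type 2 dendritic cells held Il1b at 1607, 1331 and 4477 CPM and macrophages at 92.9, 444 and 487 CPM.

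Neutrophil and stromal transcripts moved with the same library. The 8 neutrophil genes summed to 326, 477 and 3391 CPM in low-mixture members and to 105, 239.8 and 1951 CPM in other kept cells, with S100a9 at 0, 0.854 and 1222 CPM. In the wild-type libraries Il1r2, which is in that list, made up nearly all of the sum. The 6 fibroblast genes summed to 39.3, 0 and 602 CPM. Acta2, the actin of smooth muscle, was at 0, 0 and 593 CPM and Tpm1 at 70.2, 54.7 and 283 CPM, of which 1 cell held 75%. In RP_UV, 2 members with neutrophil transcripts and 1 with stromal transcripts carried most of these UMIs. Without these 3 cells, a choice made after the data had been seen, S100a9 in RP_UV was at 190.1 CPM, Acta2 at 10.6 and Tpm1 at 84.5. Il1b was then at 2862 CPM, 7.67-fold above WT_UV (6.57 to 8.94), and Cxcl2 at 2577 CPM, 5.73-fold above it (4.9 to 6.68). Nlrp3 was at 190.1 CPM and Bcl2a1b at 697 CPM, Ifitm3, an interferon-induced membrane protein gene, stood at 52.8 CPM in place of 381 CPM, and Ifitm1 at 232 CPM in place of 443 CPM.

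Cdkn1a and Il1r2 were higher in RP_UV with and without these cells. Cdkn1a (ENSMUSG00000023067), which encodes the cell cycle inhibitor p21, stood at 595 (518 to 681), 839 (787 to 893) and 2567 CPM (2280.2 to 2880.4), 3.06-fold higher in RP_UV than in WT_UV (2.68 to 3.49) and 3.03-fold without the 3 cells. Other kept cells had 375, 451 and 465 CPM of Cdkn1a, type 2 dendritic cells 657, 620.0 and 1233 CPM and macrophages 115, 343 and 327 CPM. Of the p53 targets only Cdkn1a and the apoptosis gene Bax were tested. Cdkn1a alone of the 2 passed in RP_UV over WT_UV, where 4.74% of all tested genes were higher. In all members none of the 2 p53 targets tested passed in that comparison, where 4.01% of all tested genes were higher. Il1r2 (ENSMUSG00000026073), the decoy receptor that binds IL-1, stood at 323 (267 to 388), 468 (429.7 to 509) and 1505 CPM (1287 to 1749), 3.22-fold higher in RP_UV (2.69 to 3.83), while other kept cells had 55.2, 71.1 and 163 CPM. After thinning, Cdkn1a was seen in 40%, 56.4% and 78.3% of low-mixture members, 25%, 30.2% and 75% of T cells and 49.7%, 56.8% and 69.9% of type 2 dendritic cells. For Il1r2 the shares were 30%, 43.6% and 82.6%, then 0.893%, 5.43% and 33.3%, then 15.3%, 18.4% and 54.4%. The thinned T cells of RP_UV numbered 12. A higher share in RP_UV was thus not particular to Langerhans cells for either gene. Nfkbia, the inhibitor of NF-κB that is itself induced by it, stood at 659.8, 463 and 2257 CPM and at 1922 CPM in RP_UV without the 3 cells. It belongs to the immediate early and dissociation stress genes named above. Of 14 tested, 3 were higher and none lower in RP_UV than in WT_UV, where 4.74% and 5.16% of all tested genes were. The list's median log2 difference was 0.51 against 0.05 over all genes, and -0.08 against 0.02 for RP_UV over WT_Ctrl. The part of tissue handling was not tested.

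The remaining genes at the higher end of RP_UV were Socs3, a feedback inhibitor of cytokine receptors, at 39.3, 48.7 and 266 CPM, Srgn, a granule proteoglycan, at 61.8, 176 and 841 CPM, and Plaur, the urokinase receptor, at 0, 51.3 and 257 CPM. Fgl2, an immunoregulatory gene of myeloid cells, stood at 19.7, 60.6 and 239 CPM and was among the 10 highest against WT_Ctrl. Plaur had no UMI in WT_Ctrl, and against a floor of 3 UMIs it was at least 30.5-fold higher in RP_UV. Without the 3 cells Socs3, Srgn and Plaur remained above WT_UV in RP_UV, at 179.6, 581 and 179.6 CPM. Fgl2 was not read without these cells.

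**Figure D3:**
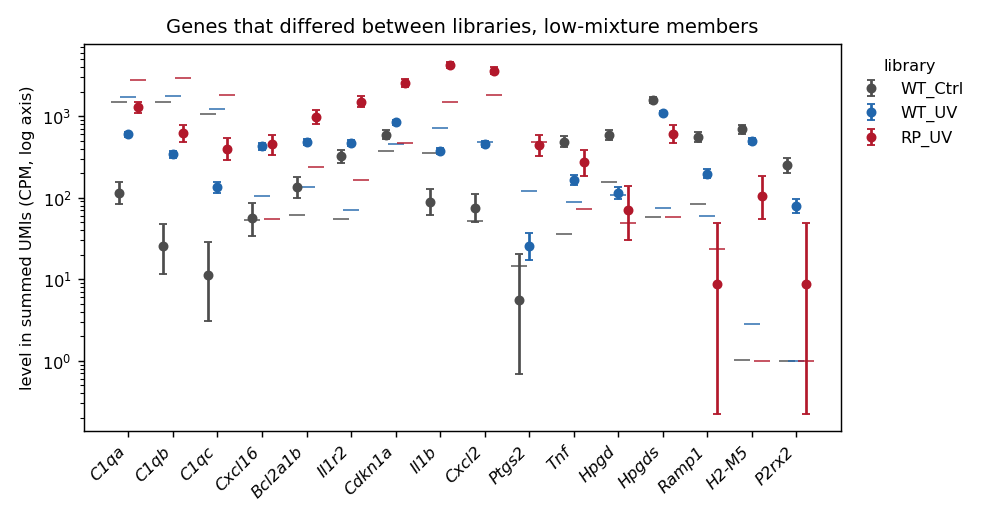
Level (CPM, log axis) of selected genes in low-mixture Langerhans cells of each library, with 95% Poisson bars. Short horizontal lines give the level in all other kept cells of that library, drawn at 1 CPM where it was lower. Il1b, Cxcl2 and Ptgs2 reach 4267, 3612 and 443 CPM in RP_UV, where other cells also hold them, whereas Hpgd, Hpgds, Ramp1, H2-M5 and P2rx2 stand lowest in RP_UV.

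C1q genes were higher in irradiated than in control Langerhans cells, and they were not used to choose members or to define low mixture. C1qa, C1qb and C1qc encode the chains of C1q, the recognition molecule of the complement cascade, which coats dying cells for uptake. C1qa (ENSMUSG00000036887) stood at 115 (82.6 to 156), 602 (559 to 648) and 1284 CPM (1083 to 1510.4). C1qb (ENSMUSG00000036905) stood at 25.3 (11.6 to 48), 343 (309.8 to 378) and 619.7 CPM (483 to 783). C1qc (ENSMUSG00000036896) had 11.2 (3.06 to 28.8), 135 (115 to 158) and 398 CPM (291 to 533). The order WT_Ctrl, WT_UV, RP_UV was the same for all 3 genes, and their intervals did not overlap.

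The fold of WT_UV over WT_Ctrl was 5.23 for C1qa (3.82 to 7.35), 13.6 for C1qb (7.07 to 29.9) and 12 for C1qc (4.6 to 44.6). That of RP_UV over WT_UV was 2.13 (1.77 to 2.55), 1.81 (1.38 to 2.34) and 2.95 (2.07 to 4.13). At least 1 C1q UMI was found in 31 of 71, 70 of 78 and 23 of 24 low-mixture members, and all 3 genes in 1, 29 and 11 of them. After thinning, C1qa was seen in 15.7%, 39.7% and 78.3% of low-mixture members (32.4%, 80.8% and 83.3% before), against 4.56%, 6.27% and 11.9% of keratinocytes, which should lack it and whose median depth was 6208, 14853 and 7041 UMIs. C1qa was thus seen in most irradiated members before thinning, in 39.7% of those of WT_UV after it, and above the keratinocyte share in each library. The highest share of C1q UMIs in a low-mixture member of WT_UV was 0.594%. That cell held 33680 UMIs, of which 0.172% came from the other macrophage genes, just below the limit.

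Other dendritic cells held C1q transcripts too. C1qa stood at 159, 450.4 and 898 CPM in type 1 dendritic cells and C1qb at 196, 448 and 852 CPM, the same order as in Langerhans cells. In mature dendritic cells C1qa stood at 17.7, 524 and 656 CPM, the first from 2 and the last from 6 UMIs. Type 2 dendritic cells, defined by at most 1 C1q UMI, are not compared. All 11 macrophage genes summed to 329, 1402 and 2558 CPM in low-mixture members, mostly from the 3 C1q genes in WT_UV and RP_UV, and to 13639, 17353 and 17819 CPM in other kept cells. Of these 11 genes, 1, 1 and 4 had no UMI in low-mixture members. UMIs of C1qa stood to those of C1qb as 4.56 (2.18 to 10.7), 1.76 (1.55 to 1.99) and 2.07 (1.55 to 2.8) to 1 in low-mixture members, whereas the ratio in macrophages was 1.02 (1 to 1.03), 0.99 (0.981 to 0.998) and 0.948 (0.939 to 0.958). In keratinocytes, which should lack C1q, the ratio was 0.792 (0.631 to 0.994), 0.743 (0.587 to 0.937) and 0.956 (0.857 to 1.07). In all members, the mixed ones included, it was 1.35, 1.28 and 1.03. UMIs of C1qc stood to those of C1qb as 0.444 (0.1 to 1.59), 0.394 (0.326 to 0.475) and 0.643 (0.432 to 0.948) to 1 in low-mixture members and as 0.72, 0.699 and 0.623 to 1 in macrophages, so the interval held the macrophage value in WT_Ctrl and RP_UV and lay below it in WT_UV. The part of macrophage RNA in the C1q levels was not tested.

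**Figure D4:**
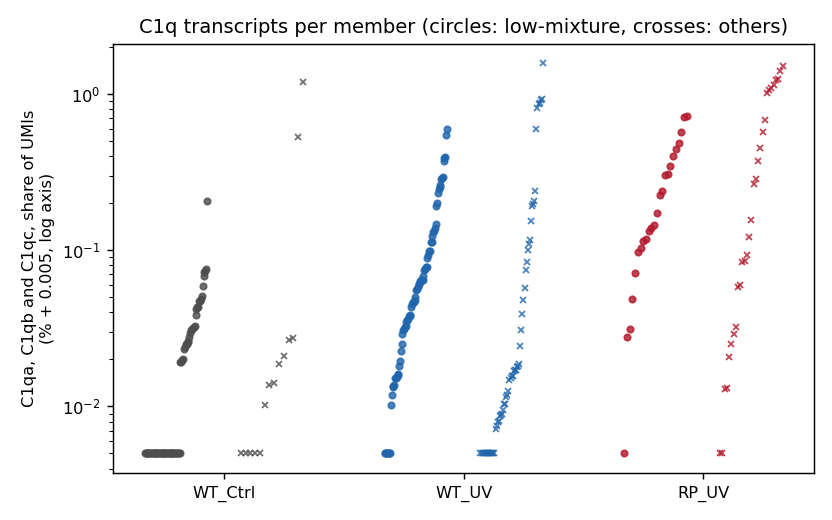
Share of each member's UMIs that came from C1qa, C1qb and C1qc (% plus 0.005, log axis), with members sorted within their library. Circles are low-mixture members and crosses are the others. Most of the 71 low-mixture members of WT_Ctrl lie at the bottom with no C1q UMI, while 70 of 78 in WT_UV and 23 of 24 in RP_UV lie above it.

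Because the C1q chains were higher together in both irradiated libraries, the stretches before their transcription starts are shown beside those of Cd207 and Mfge8, genes that the rule used to find the cells. The sequences are 250 bases upstream of the start, from RefSeq on GRCm38.p6, and all 4 genes lie on the minus strand: Cd207 at chr6:83677858-83678107, Mfge8 at chr7:79149061-79149310, C1qb at chr4:136886201-136886450 and C1qc at chr4:136892915-136893164. Capitals mark GAGGAA or its reverse complement TTCCTC, the core of sites bound by PU.1, and TGTGGT or its reverse complement ACCACA, the core of sites bound by RUNX factors.
Cd207: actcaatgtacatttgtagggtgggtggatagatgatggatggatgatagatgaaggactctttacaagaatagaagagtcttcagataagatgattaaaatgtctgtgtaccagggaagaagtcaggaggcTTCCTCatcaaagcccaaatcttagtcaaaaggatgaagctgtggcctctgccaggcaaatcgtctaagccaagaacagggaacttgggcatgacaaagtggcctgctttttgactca
Mfge8: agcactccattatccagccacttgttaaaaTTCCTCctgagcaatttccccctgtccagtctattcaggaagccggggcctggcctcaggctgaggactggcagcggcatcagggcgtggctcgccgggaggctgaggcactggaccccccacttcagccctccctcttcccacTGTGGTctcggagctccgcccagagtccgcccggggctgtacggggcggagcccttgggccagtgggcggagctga
C1qb: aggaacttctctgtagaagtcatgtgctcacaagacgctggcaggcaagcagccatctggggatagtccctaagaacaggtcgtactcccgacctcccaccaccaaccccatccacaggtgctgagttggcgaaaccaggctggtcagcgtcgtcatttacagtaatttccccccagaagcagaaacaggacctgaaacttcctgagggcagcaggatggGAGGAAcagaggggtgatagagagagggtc
C1qc: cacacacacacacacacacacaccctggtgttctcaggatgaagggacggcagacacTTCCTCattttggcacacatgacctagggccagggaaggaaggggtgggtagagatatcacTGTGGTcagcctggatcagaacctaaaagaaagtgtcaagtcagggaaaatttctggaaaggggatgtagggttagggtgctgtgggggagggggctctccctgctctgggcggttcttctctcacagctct
The PU.1 letters were found once in each of the 4 sequences, and in 23.3% of 32851 RefSeq promoters. The RUNX letters were found once in Mfge8 and once in C1qc, and in 14% of promoters. A match describes the letters in this window and is no evidence that either factor binds there.

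Prostaglandin and leukotriene genes were examined because RP mice overexpress Cox-2. Ptgs2 (ENSMUSG00000032487), the gene of Cox-2, stood at 5.62, 25.6 and 443 CPM in low-mixture members, from 2, 30 and 50 UMIs in 1, 4 and 8 cells, and was 17.3-fold higher in RP_UV than in WT_UV (10.8 to 28.1). It was at 14.6, 119.6 and 485 CPM in all other kept cells. After thinning it was seen in 0%, 2.56% and 30.4% of low-mixture members, 1.04%, 0.369% and 40.5% of keratinocytes and 0.893%, 4.65% and 33.3% of T cells, so the members did not stand above these classes in RP_UV. Without the 3 cells rich in neutrophil or stromal transcripts it was at 253 CPM. How many reads of the rat transgene were counted as mouse Ptgs2 was not tested.

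Enzymes that handle the products of Cox-2 were lower in RP_UV than in WT_Ctrl. Hpgd (ENSMUSG00000031613), the dehydrogenase that inactivates prostaglandin E2, stood at 589.6 (513 to 675), 114 (95.1 to 135) and 70.8 CPM (30.6 to 139.5). It was lower by 5.19-fold in WT_UV than in WT_Ctrl (4.16 to 6.5) and by 8.33-fold in RP_UV than in WT_Ctrl (4.15 to 19.5), whereas the difference between RP_UV and WT_UV, a fold of 1.6, lay within its interval (0.791 to 3.79). After thinning Hpgd was seen in 57.1%, 21.8% and 13% of low-mixture members. Other kept cells had 157, 107 and 48.5 CPM, and macrophages went from 379 to 183 and 80.6 CPM, so a lower level was not particular to Langerhans cells.

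Hpgds (ENSMUSG00000029919), the synthase of prostaglandin D2, was far higher in members than in other cells, at 1572 (1445 to 1708), 1089 (1030.1 to 1151) and 611 CPM (475 to 773) against 58.6, 74.4 and 58.6 CPM. It was lower in RP_UV than in WT_UV by 1.78-fold (1.4 to 2.31) and than in WT_Ctrl by 2.57-fold (2 to 3.36). Alox5, the lipoxygenase that starts leukotriene synthesis, stood at 362, 244 and 142 CPM, and its partner Alox5ap at 1244, 993 and 965 CPM. Ptgs1, the constitutive cyclooxygenase, was at 856, 626 and 664 CPM and Ptges3 at 225, 212 and 159 CPM. Of 7 tested genes of the pathway, Ptgs2 was the only one past the threshold on the higher side in any comparison, and it was among those tested through its level in RP_UV alone. On the lower side were 1 gene (Hpgd) in WT_UV over WT_Ctrl, none in RP_UV over WT_UV, and 3 (Hpgd, Hpgds and Alox5) in RP_UV over WT_Ctrl, against 2.37%, 5.16% and 7.46% of all tested genes. The cAMP-responsive genes did not move together: of 5 tested, Nr4a1 was lower in WT_UV at 635, 312 and 319 CPM, and Dusp1 alone was higher in RP_UV than in WT_UV, at 444, 288 and 814 CPM. Of all tested genes, 2.37% were lower in WT_UV than in WT_Ctrl and 4.74% higher in RP_UV than in WT_UV.

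Genes that mark Langerhans cells among the cells of these libraries were examined as a group of their own. These were 65 genes that stood at 100 CPM or more in low-mixture members of WT_Ctrl and at 10 times or more their level in other kept cells. The choice used WT_Ctrl alone and was made after the data had been seen. Between RP_UV and WT_UV, neither of which entered the choice, 14 of the 65 (21.5%) were lower and 1 (1.54%), the lectin gene Clec4n, was higher, compared with 6.31% lower and 2.52% higher of 1427 genes at that level. The median log2 difference was -0.42 against -0.03.

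The genes behind this count have varied functions. Ramp1, the coreceptor through which the neuropeptide CGRP acts, stood at 556 (481 to 639), 196 (172 to 224) and 8.85 CPM, the last from 1 UMI. It was lower by 2.83-fold in WT_UV than in WT_Ctrl (2.33 to 3.44) and by 22.2-fold in RP_UV than in WT_UV (3.94 to 880.3), although it falls outside the 65 because other cells held it at 82.8, 59.7 and 23.5 CPM. H2-M5 (ENSMUSG00000024459), a nonclassical MHC class I gene like H2-M2, was at 688, 494 and 106 CPM, lower in RP_UV than in WT_UV by 4.65-fold (2.64 to 9.05), and other cells had 1.03, 2.83 and 0.0348 CPM. P2rx2, an ATP-gated channel, stood at 249.9, 79.4 and 8.85 CPM. The sodium channel gene Scn3a was at 329, 287 and 97.4 CPM, the protocadherin gene Pcdh7 at 444, 231 and 79.7 CPM, the peptidase gene Dpep2 at 129, 149 and 35.4 CPM, and Plpp1 at 199, 83.7 and 26.6 CPM. Without the 3 cells named above Clec4n stood at 169 CPM in RP_UV in place of 363 CPM, 1.47-fold over WT_UV (0.814 to 2.47), and was no longer past the threshold. H2-M5 was at 106 CPM and Hpgds at 634 CPM without them.

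The lowest genes of RP_UV in this comparison further included Tcea3, an elongation factor, at 183, 309 and 35.4 CPM (lower than WT_UV by 8.73-fold, 3.38 to 32.2), Ccni at 174, 161 and 26.6 CPM, Hk2, a hexokinase, at 253, 267 and 79.7 CPM, Ighm at 160, 193 and 35.4 CPM, Cox17 at 98.3, 185 and 53.1 CPM and Jmy at 197, 97.4 and 26.6 CPM. Ccni, Hk2 and Ighm were near level between the wild-type libraries and low in RP_UV. Tcea3 was higher in WT_UV than in WT_Ctrl and low in RP_UV, whereas Jmy was lower in WT_UV already. Against WT_Ctrl, Camk1d at 205, 97.4 and 35.4 CPM and Rasgef1b at 640.2, 365 and 177 CPM were also among the 10 lowest in all members.

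**Figure D5:**
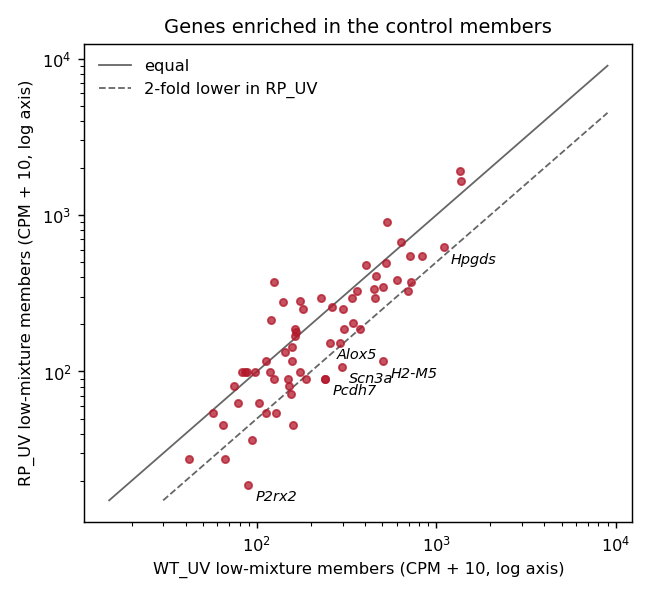
Level (CPM plus 10, log axes) of the 65 genes enriched in control Langerhans cells, with WT_UV on the x axis and RP_UV on the y axis, in low-mixture members. The solid line marks equal levels and the dashed line a level in RP_UV that is 2-fold lower. Of the 65 genes, 14 lie below the dashed line, among them H2-M5, Scn3a, Pcdh7 and P2rx2.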

How the data were processed

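The authors deposited unnormalized UMI counts for 32285 genes in the called cells of each library, which come from Cell Ranger 6.1.1 (per the file headers) on mm10 (per the labels). From these counts, cells were kept if mitochondrial UMIs were below 10% and the genes detected lay above 200 and below 4000 (6000 in WT_UV), as in the methods of the study, and members were found by the rule stated in the report. UMIs were summed over members and divided by their total to give CPM. Levels have exact Poisson intervals, ratios of levels exact conditional binomial ones, and shares exact Clopper-Pearson ones, all at 95% and for counting error only. Called means at least 2-fold on log2(CPM + 10) among genes with a mean of 100 CPM over the 3 libraries. Cells are not replicates and each group had 1 library, so no test was made. The total UMIs of members set the precision.

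The members and gene lists were chosen with earlier results of these data known. Genes named were the rule's genes, the highest and the 2-fold members of each list, and the 10 highest and 10 lowest of each comparison, leaving out ribosomal, mitochondrial, haemoglobin and predicted genes and those lower than in other cells. Of these, 1 gene is not reported here. The low-mixture members, the 65 enriched genes and the removal of members rich in neutrophil or stromal transcripts were defined after seeing the data. Rich meant at least 20 UMIs of S100a8 and S100a9 or of Acta2 and Sparc. In RP_UV 8 low-mixture members held a UMI of S100a8 or S100a9 and 2 were removed for them, so some such transcripts remained. For shares of cells with a UMI, cells were thinned to 2000 UMIs and shallower cells left out (1, 0 and 1 low-mixture members). T cells held at least 2 UMIs of Cd3e, Cd3d and Cd3g, keratinocytes at least 10 of Krt5 and Krt14, and macrophages at least 5 of the C1q genes. Doublets were not removed: Scrublet marked 1.39%, 0.0191% and 0.0165% of cells and did not work in the last 2 libraries, so removal of its 5% highest scores was an alternative. Of the 5 promoters looked up, 4 were found in the RefSeq table (GRCm38.p6), and both strands were searched. The calculations were tested on simulated data. Python 3.11.15, numpy 2.4.6, scipy 1.17.1, pandas 2.3.3, scanpy 1.11.5 and matplotlib 3.10.9 were used. In all, 18 alternatives were tried.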

Additional observations from a re-analysis of the deposited data

How the results depend on the processing

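With 1 library per group, leaving out a replicate was not possible and the spread between animals is unknown. No paired analysis was possible because each group had a single library. Depth limits genes of few UMIs in the 24 low-mixture members of RP_UV, and the limit on genes per cell differed for WT_UV.

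The share of WT_UV over WT_Ctrl, 1.64 as reported, was 1.2 with the 4000-gene limit in every library, 1.25 with all deposited barcodes, 1.08 with thinned cells, 1.12 for low-mixture members with and without those rich in neutrophil or stromal transcripts, and 1.01 over Ptprc-positive cells. RP_UV over WT_UV was 0.616 over Ptprc-positive cells, 0.232 in the most restricted members and 1.02, the other direction, over MHC class II cells. RP_UV over WT_Ctrl was 0.296 and 0.259 for the 2 restricted groups and 1.31, reversed, over MHC class II cells. The other 27 of 39 share ratios kept their direction and moved by less than their interval.

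Counts past 2-fold changed with the cells and genes admitted. With the 4000-gene limit 55 genes were higher in WT_UV than in WT_Ctrl and 95 higher in RP_UV than in WT_UV. All deposited barcodes gave 61 higher and 6 lower for WT_UV over WT_Ctrl, 29 higher for RP_UV over WT_UV and 91 higher for RP_UV over WT_Ctrl. The split of WT_UV over WT_Ctrl was then 91% higher, against 72.1% as reported, and that of RP_UV over WT_UV 40.8% against 56.3%. Thinned cells gave 132 higher and 102 lower for RP_UV over WT_UV and 132 lower for RP_UV over WT_Ctrl, removal of high Scrublet scores 59 lower for WT_UV over WT_Ctrl, low-mixture members 74 lower for RP_UV over WT_UV, and the most restricted members 65 higher for WT_UV over WT_Ctrl and 78 lower for RP_UV over WT_UV. A minimum of 20 CPM gave 266 and 127, 179 and 136, and 490 and 346 genes higher and lower in the 3 comparisons, and no minimum 366 and 197, 334 and 228, and 826 and 605, by construction from more genes.

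Reversed genes were mostly epidermal, with log2 values as follows. For WT_UV over WT_Ctrl, Cst6 was at -0.12 (4000 genes), -0.25 (all barcodes) and -1.27 (without members with over 5 UMIs of Krt5 and Krt14, called keratin-rich here), and Spink5 at 0.13 (5% mitochondrial limit), 0.75 (at least 2 UMIs of Cd207), 0.63 (thinned), 0.66 (without keratin-rich members) and 0.33 (low-mixture, also most restricted). For RP_UV over WT_UV, all barcodes gave Spink5 -0.80, Krt79 0.36 and Hspb1 -0.61. Without keratin-rich members, Cst6 was at 0.00, Spink5 -0.55, Krt79 0.24, Hspb1 -1.08 and Urah -0.04. Low-mixture members gave Spink5 -0.33, Krt79 0.53, Urah -0.12, Ccl27a 0.02 and Krt6b -0.12, and the most restricted ones the same or Krt79 0.72 and Ccl27a 0.15. Mmp12 in RP_UV over WT_Ctrl was at -0.36 in both.

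Reversed list medians, for WT_UV over WT_Ctrl, were lipid genes -0.16 (4000 genes), prostanoid genes 0.25 (all barcodes), type 1 dendritic cell genes -0.08 (20 CPM), lectins -0.65 (thinned) and -0.57 (both restricted groups), and type 2 dendritic cell genes -0.88 (thinned). For RP_UV over WT_Ctrl, all barcodes gave lipid genes -0.22, prostanoid genes 0.10, maturation genes 0.86 and NRF2 targets -0.02. Maturation genes were at 0.15 and 0.06 with 20 CPM and no minimum, type 1 dendritic cell genes at -1.32 (no exclusion genes), -0.22 (low-mixture) and -0.54 (20 CPM), and lectins at -0.13 (most restricted). Keratinocyte genes without keratin-rich members were at -0.55 for RP_UV over WT_UV and -0.23 for RP_UV over WT_Ctrl. The cause of these reversals was not tested.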

Other observations

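Further gene groups were read in low-mixture members. Mt1, a metallothionein that binds zinc, stood at 50.5, 381 and 221 CPM, 7.54-fold higher in WT_UV than in WT_Ctrl (4.71 to 12.8), and Txn1, the redox protein thioredoxin, at 227, 411 and 699 CPM, 3.08-fold higher in RP_UV than in WT_Ctrl (2.23 to 4.25). Of 4 tested NRF2 targets and metallothioneins, Mt1 was past 2-fold in WT_UV over WT_Ctrl, none in RP_UV over WT_UV, and both Mt1 and Txn1 in RP_UV over WT_Ctrl, where 4.74%, 4.74% and 8.93% of all tested genes were higher. Fabp5, a carrier of fatty acids, was at 19.7, 147 and 195 CPM, and it was 7.48-fold higher in WT_UV than in WT_Ctrl (3.55 to 18.9). Mature dendritic cells held Fabp5 at 3058, 4959.5 and 5579 CPM, far above the members and in the same order of libraries. They held Mt1 at 133, 251 and 547 CPM, the last from 5 UMIs. The part of free RNA in the member levels of Fabp5 and Mt1 was not tested.

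Proliferation was seen in few cells. At least 3 UMIs of 9 cell cycle genes were found in 3 of 71 low-mixture members of WT_Ctrl (4.23%, 0.88 to 11.9), 5 of 78 of WT_UV (6.41%, 2.11 to 14.3) and 1 of 24 of RP_UV (4.17%, 0.105 to 21.1), and the intervals overlapped. Pcna, the clamp of DNA replication, stood at 267, 137 and 106 CPM. Of the 2 interferon-stimulated genes tested, Ifitm3 was at 36.5, 41.9 and 381 CPM and at 52.8 CPM in RP_UV without the 3 cells rich in neutrophil or stromal transcripts. The 5 melanocyte genes summed to 0 CPM in every library, the 8 genes of type 1 dendritic cells to 174, 297 and 168 CPM, and those of type 2 to 275, 168 and 248 CPM, while the 9 T and NK cell genes summed to 8.42, 22.2 and 26.6 CPM and the 6 monocyte genes to 81.4, 14.5 and 239 CPM.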
